A study of Danio rerio with 36 samples.

Results

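The genes described here make, bind or break down retinoic acid, or carry or convert its precursors, and they were followed through 36 libraries of whole zebrafish larvae. They were taken by name: aldh1a2, dhrs3a, dhrs3b, cyp26a1, cyp26b1, cyp26c1, rbp4, rbp4l, raraa and rarga. Each of these 10 names had 1 row among the 30221 genes of the table, and all 10 were among the 20120 genes that reached at least 1 FPKM in at least 3 libraries. FPKM is a level of mapped fragments scaled to transcript length and to library depth.

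Retinoic acid is a small signalling molecule made from vitamin A. Retinol travels bound to retinol-binding proteins, is oxidised to retinal and then, by retinaldehyde dehydrogenases such as Aldh1a2, to retinoic acid. Dhrs3 enzymes turn retinal back into retinol, Cyp26 enzymes oxidise retinoic acid for removal, and the receptors, paired with retinoid X receptors, control transcription of target genes, among which cyp26a1 and dhrs3 genes are well known from vertebrate embryos. In the regenerating zebrafish fin, aldh1a2 is known for its role in the blastema, the mass of proliferating cells under the wound epidermis.

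The larvae were wild type. From 6 h after fertilisation they were kept in regular culture medium, in 130 mM D-glucose or in 222 mM D-glucose. After 14 days part of the caudal fin was cut off, distal to the spinal cord, and the same medium was used afterwards. RNA of whole larvae was taken from uncut larvae of each medium and from larvae 3, 24 and 48 h after amputation, which gives 12 groups of 3 libraries, and the series title presents the work as a model of diabetes in inflammation and regeneration. The design text gives the higher dose once in nM, while the sample labels give mM. The age of the uncut larvae is not stated, so amputation and time cannot be told apart in comparisons with them, and a control for osmotic strength was not analysed here. The labels do not say whether replicates came from separate larvae or pools, so the tests weigh differences against the spread of the libraries alone, which may be technical.

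Total counts ran from 47904694 to 67514889 per library. Replicate 3 of uncut larvae in regular medium correlated less with the other replicates of its group (mean r = 0.937 across genes, of log2 CPM, the count scaled to library size) than these did with each other (r = 0.986). Replicate 3 of uncut larvae in 222 mM, replicate 1 at 3 h in regular medium and replicate 1 at 24 h in 130 mM stood apart in the same way. Every gene of the marker lists of liver, photoreceptor, epidermis and fin, muscle and gut that the table held had a count in every library, while the blood genes hbba1 and hbaa1 did not reach the expression limit. In uncut larvae in regular medium the summed level of 12 liver markers was 5819 CPM in replicate 1, 4510 CPM in replicate 2 and 708 CPM in replicate 3. That of 4 gut markers was 1394, 1399 and 572 CPM and that of 11 epidermis and fin markers 23025, 21515 and 14284 CPM. Calls of the 10 genes that use any of these 4 libraries are followed by the log2 change without them.

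A log2 change below is the log2 fold change of the scaled counts ± its standard error, with 3 libraries in each group. The spread behind this standard error and p was estimated in 1 fit of all 36 libraries. It is therefore not the spread of the compared groups alone, which can be wider, as among uncut larvae in regular medium for cyp26a1. A gene rose or fell when its p, from edgeR's quasi-likelihood test and adjusted over all 20120 genes of the comparison, lay under 0.05.

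Among the enzymes that remove retinoic acid or its precursor, cyp26a1 and cyp26b1 fell at all 3 times after amputation in regular medium, as did the receptor gene raraa. There cyp26c1 fell at 3 h and 24 h, dhrs3a at 3 h and 48 h, and dhrs3b at 48 h. Uncut larvae in regular medium held the highest mean FPKM of the 12 groups for 6 of the 10 genes, namely cyp26a1, cyp26b1, cyp26c1, dhrs3a, dhrs3b and raraa, while this group was the highest for 6.43% of all tested genes. For each of these genes but cyp26b1 its libraries overlapped with those of the next group in the order of means. The 10 genes were chosen with earlier results of these data known, so such shares are a description only. In regular medium 5 of 10 genes fell at 3 h, where 15.1% of all tested genes were called and 7.06% fell. At 24 h 4 of the 10 fell and 1, rbp4, rose, where 9.78% of all tested genes were called, 4.24% lower and 5.54% higher. At 48 h 6 of the 10 fell, where 14.5% of all tested genes were called and 7.45% fell. Tissue markers also moved at 48 h in regular medium: 7 of 14 photoreceptor, 5 of 11 epidermis and fin, 2 of 12 liver and 1 of 4 gut markers fell. The 2 tested blood markers fell as well, and 3 of 6 muscle markers rose. The summed muscle markers were 15646 to 22083 CPM in uncut larvae and 34796 to 38951 CPM at 48 h, and the part of these markers in the falls was not tested. The median log2 change of the 10 genes was -0.24, -0.59 and -0.70 at the 3 times, beside -0.01, -0.03 and -0.01 over all tested genes. These 3 comparisons share the uncut group, so they are not independent of each other. In 130 mM glucose 1 gene rose at 3 h (38.2% of all tested genes called, 20.9% higher) and another at 24 h (2.67% called, 1.77% higher). At 48 h in 130 mM none was called with edgeR (6.14% of all tested genes), 1 gene had an unadjusted p under 0.05, DESeq2 called 0 and limma on log2(FPKM + 0.1) called 1. Without the 4 libraries apart edgeR called 2 genes there. In 222 mM glucose none was called at 3 h with edgeR (0.895%), where 1 gene had an unadjusted p under 0.05 and DESeq2 and limma called 0. Here too edgeR called 2 genes without the 4 libraries apart. In that fit 26.2% of all tests over all genes were called, pooled over the 9 comparisons after amputation. The share of each comparison alone in that fit is not given here. In 222 mM 1 gene rose at 24 h (4.6% of all tested genes called, 1.81% higher), and at 48 h 1 rose and 1 fell (17.2% called, 8.41% higher and 8.74% lower).

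**Figure D1:**
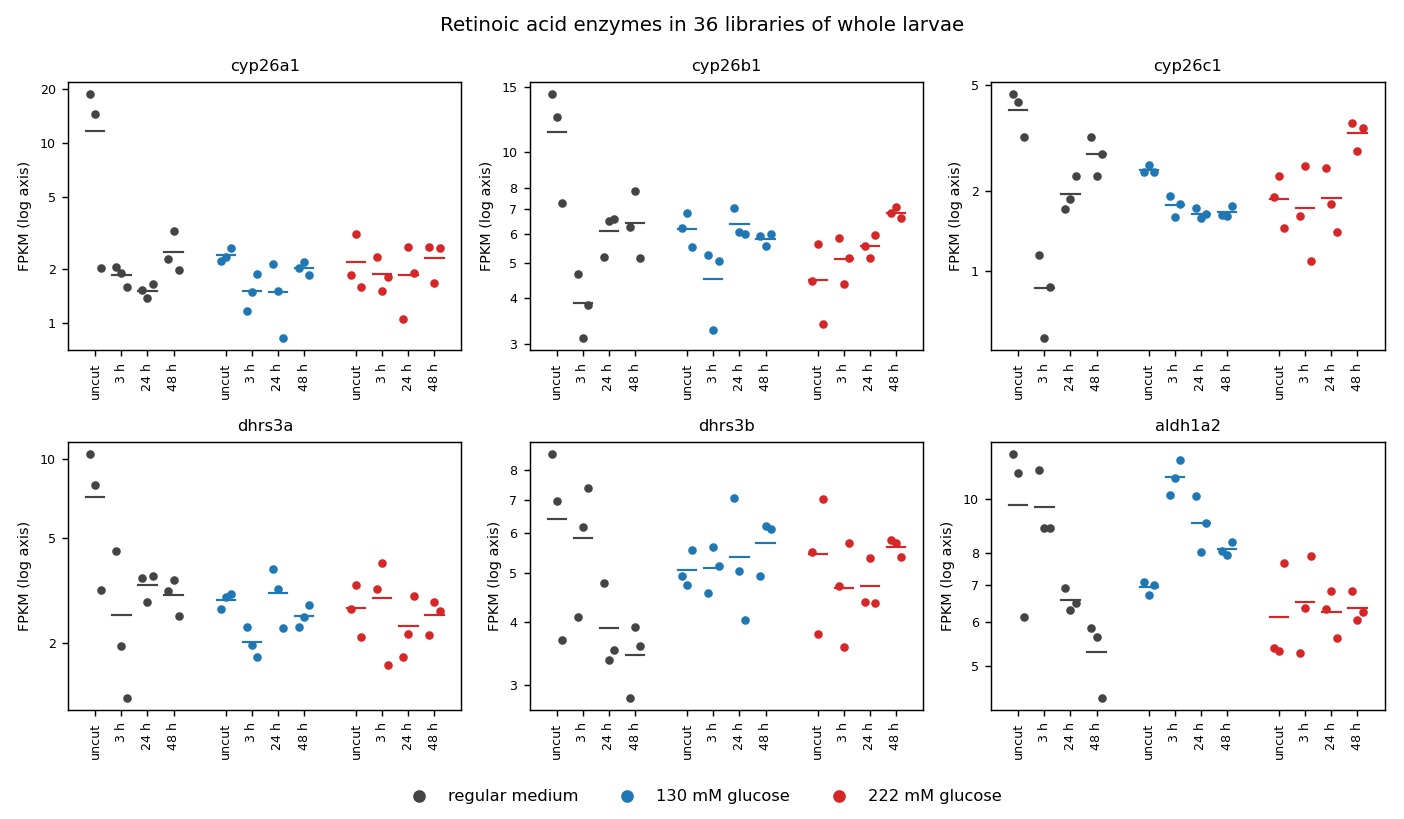
Level of the 6 enzyme genes in each library (points, FPKM on a log axis) and the mean of each group (lines), by medium and by hours after amputation. In uncut larvae in regular medium, replicates 1 and 2 lie above every other library for cyp26a1, cyp26b1, dhrs3a and cyp26c1, while replicate 3 of that group lies within the range of the other groups for each of these genes.

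Between media, 2 of the 10 genes were lower in 130 mM than in regular medium in uncut larvae (2.63% of all tested genes called, 1.87% lower) and 6 were lower in 222 mM (12.6% called, 6.91% lower). None differed between 222 mM and 130 mM in uncut larvae with edgeR (7.63% of all tested genes called), where no gene had an unadjusted p under 0.05 and DESeq2 and limma called 0. At 3 h 1 gene was called in each comparison of media, where 9.5% (130 mM against regular medium), 23.9% (222 mM against regular medium) and 12.8% (222 mM against 130 mM) of all tested genes were. At 24 h 2 genes were called for 222 mM against regular medium (34.1%) and 3 for 222 mM against 130 mM (24.3%). For 130 mM against regular medium at 24 h none was called with edgeR (7.03%), 1 gene had an unadjusted p under 0.05, and DESeq2 and limma called 0. At 48 h each comparison of media called 2 genes (19.9%, 16.5% and 15.8% of all tested genes, in the same order).

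In all, the 27 comparisons of groups gave 54 calls in 270 tests of these genes. They were 21 of 90 after amputation (12.1% of all tests over all genes), 22 of 120 between media (15.6%) and 11 of 60 between successive times (14.7%). Uncut larvae in regular medium took part in 50 of the 270 tests and in 24 of the 54 calls, and the other group was the lower in 23 of these. The comparisons with that group called from 2.63% to 15.1% of all tested genes, with 1.87% to 7.45% lower. Of the 54 calls, 19 were made whichever single library of the comparison was left out. With only the libraries compared in the fit, all 24 calls that involve uncut larvae in regular medium were lost, as were 9 of the other 30. Without the 4 libraries standing apart the calls after amputation rose from 21 to 34 of 90, while the share of all tested genes called rose from 12.1% to 26.2%.

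**Figure D2:**
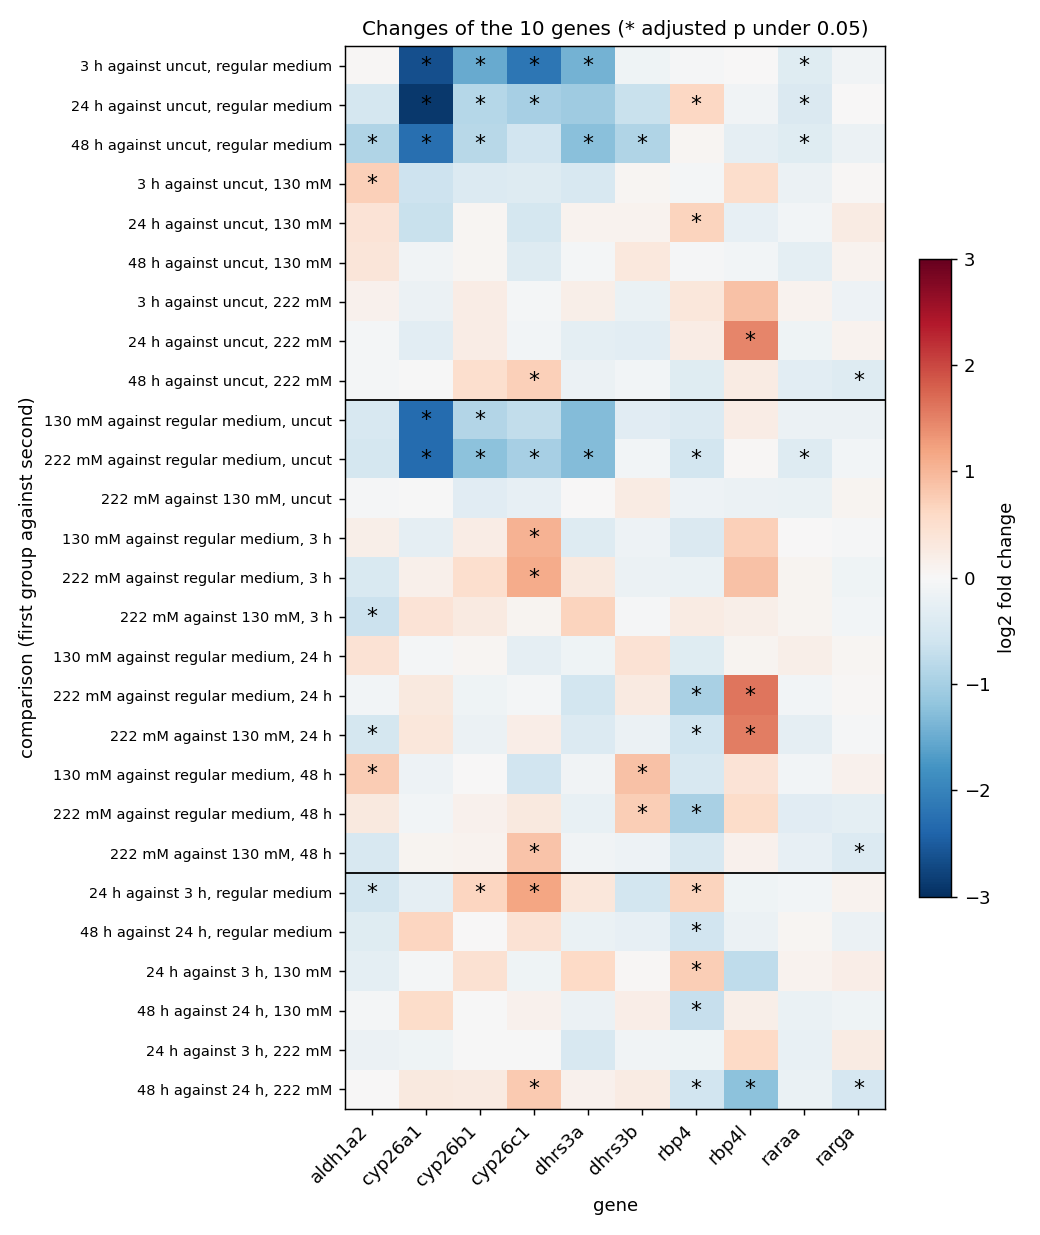
Log2 fold change of each gene (columns) in each of 27 comparisons (rows; first group against second), with an asterisk where the adjusted p lay under 0.05. The upper block compares times after amputation with uncut larvae, the middle block compares media, and the lower block compares successive times. The deepest falls, of cyp26a1, stand in the 5 rows that use uncut larvae in regular medium.

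Synthesis. The gene aldh1a2 (ENSDARG00000053493, GRCz11 chromosome 7, 30326184 to 30367650, minus strand) encodes the retinaldehyde dehydrogenase that forms retinoic acid. In 130 mM glucose its level was 7.09, 6.71 and 7.02 FPKM in the 3 uncut libraries and 10.2, 10.9 and 11.8 FPKM at 3 h. The groups did not overlap, and aldh1a2 rose by a log2 change of 0.71 ± 0.20 (adjusted p = 0.0055), a call made without each single library of the 2 groups and without the 4 libraries apart. At 24 h in 130 mM it stood at 10.1, 8.04 and 9.08 FPKM and at 48 h at 8.08, 7.93 and 8.39 FPKM, all above the uncut libraries, but neither was called (adjusted p = 0.237 and 0.263). In regular medium aldh1a2 was at 12.1, 11.1 and 6.14 FPKM in uncut larvae and at 11.3, 8.9 and 8.86 FPKM at 3 h, groups that overlapped (log2 change 0.03 ± 0.20, adjusted p = 0.935). Without the 4 libraries apart this change had the opposite sign, -0.44 (adjusted p = 0.031). By 24 h the level was 6.91, 6.32 and 6.49 FPKM, below all libraries at 3 h (log2 change -0.55 ± 0.20, adjusted p = 0.046), a call lost without replicate 1 at 3 h (adjusted p = 0.274, log2 change -0.34) and without each of the 3 libraries at 24 h (adjusted p = 0.0549 to 0.146). At 48 h it was 5.85, 5.65 and 4.39 FPKM, all below the uncut libraries, and aldh1a2 had fallen (log2 change -0.90 ± 0.20, adjusted p = 0.003), a call made without each single library and lost with only the 6 libraries compared (adjusted p = 0.115). Without the 4 libraries apart the log2 change was -1.16 at 48 h, and from 3 h to 24 h it was -0.34, no longer called (adjusted p = 0.0579).

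The level of aldh1a2 in 222 mM glucose lay between 5.29 and 7.91 FPKM over its 12 libraries. At 48 h aldh1a2 was higher in 130 mM than in regular medium (log2 change 0.77 ± 0.20, adjusted p = 0.0063, lost without replicate 3 of regular medium with adjusted p = 0.0523). It was lower in 222 mM than in 130 mM at 3 h (-0.63 ± 0.20, adjusted p = 0.0314) and at 24 h (-0.52 ± 0.20, adjusted p = 0.04995). The call at 3 h was lost without any of 5 of its 6 libraries, all but replicate 3 of 222 mM (adjusted p = 0.0579 to 0.192), and the call at 24 h without any of its 6 (adjusted p = 0.0579 to 0.172), and at 24 h it was -0.46 without the 4 libraries apart. In order of mean FPKM, aldh1a2 ran from 11 ± 0.794 FPKM (SD, n = 3) at 3 h in 130 mM to 5.3 ± 0.793 FPKM at 48 h in regular medium. Only between the fifth group of that order, 48 h in 130 mM, and the sixth, uncut larvae in 130 mM, was the gap between neighbours larger than their SDs.

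Return of retinal to retinol. The paralogs dhrs3a (ENSDARG00000044982, chromosome 23, 21663631 to 21674679, plus strand) and dhrs3b (ENSDARG00000044803, chromosome 11, 28590733 to 28614608, minus strand) encode retinal reductases. In uncut larvae in regular medium dhrs3a stood at 10.5, 7.96 and 3.18 FPKM, so that replicates 1 and 2 lay above all other libraries and replicate 3 did not. The 33 libraries of the other groups ran from 1.24 to 4.47 FPKM with a median of 2.7 FPKM. At 3 h in regular medium dhrs3a was at 4.47, 1.95 and 1.24 FPKM and had fallen (log2 change -1.41 ± 0.38, adjusted p = 0.0128), although the groups overlapped. That call was lost without replicate 1 of uncut larvae (adjusted p = 0.0726), replicate 2 at 3 h (adjusted p = 0.0684) or replicate 3 at 3 h (adjusted p = 0.0651), and without replicate 1 at 3 h the log2 change was -2.21. The log2 change without the 4 libraries apart was -2.57. At 48 h dhrs3a had fallen (log2 change -1.25 ± 0.38, adjusted p = 0.0253), a call made in only 1 of the 6 fits without a single library, that without replicate 3 of uncut larvae (adjusted p in the others 0.0515 to 0.19). In uncut larvae dhrs3a was lower in 222 mM than in regular medium (-1.30 ± 0.38, adjusted p = 0.0223), which was lost without replicates 1 or 2 of regular medium (adjusted p = 0.164 and 0.0773) or replicates 1 or 3 of 222 mM (adjusted p = 0.0659 and 0.0854). It was at 3.16, 3.46 and 2.53 FPKM at 48 h in regular medium and at 2.68, 3.33 and 2.1 FPKM in uncut larvae in 222 mM. Both groups overlapped with replicate 3 of uncut larvae in regular medium. The log2 change of dhrs3a was -1.62 at 48 h and -1.53 in uncut larvae in 222 mM without the 4 libraries apart. At 24 h in regular medium dhrs3a was not called (-1.06 ± 0.38, adjusted p = 0.0674), and it was called without the 4 libraries apart (-1.43).

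The other paralog, dhrs3b, was at 8.61, 6.97 and 3.68 FPKM in uncut larvae in regular medium and at 2.84, 3.92 and 3.59 FPKM at 48 h after amputation. Replicate 3 of uncut larvae overlapped with the later group, and dhrs3b fell (log2 change -0.91 ± 0.25, adjusted p = 0.0164). The call was lost without replicates 1 or 2 of uncut larvae (adjusted p = 0.154 and 0.0817) or replicates 1 or 3 at 48 h (adjusted p = 0.083 and 0.052), and the log2 change without the 4 libraries apart was -1.20. At 48 h dhrs3b was at 4.93, 6.19 and 6.12 FPKM in 130 mM and at 5.82, 5.74 and 5.38 FPKM in 222 mM, all above regular medium. The difference from regular medium was 0.89 ± 0.25 for 130 mM (adjusted p = 0.0137, lost without replicate 1 of regular medium or replicate 2 of 130 mM with adjusted p = 0.0745 and 0.0533). It was 0.74 ± 0.25 for 222 mM (adjusted p = 0.0427, lost without any of the 6 libraries, adjusted p = 0.058 to 0.172).

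Breakdown. The cytochrome P450 gene cyp26a1 (ENSDARG00000033999, chromosome 12, 8954761 to 8958353, minus strand) encodes the best known retinoic acid hydroxylase. Its level in uncut larvae in regular medium was 18.6 FPKM in replicate 1, 14.5 FPKM in replicate 2 and 2.02 FPKM in replicate 3. All 33 other libraries lay between 0.828 and 3.24 FPKM, with a median of 1.89 FPKM, so replicate 3 was like the other groups and replicates 1 and 2 were not. Over the 3 uncut libraries the SD of log2 CPM of cyp26a1 was 1.78, the 155th largest of the 20120 tested genes. Against uncut larvae, cyp26a1 fell, with a log2 change of -2.63 ± 0.46 at 3 h (adjusted p = 0.00049), -2.91 ± 0.47 at 24 h (adjusted p = 0.00033) and -2.25 ± 0.46 at 48 h (adjusted p = 0.00174). The groups overlapped at 3 h and 48 h through replicate 3 of uncut larvae. All 3 calls were made without each single library, and without the 4 libraries apart the log2 changes were -3.29, -3.41 and -2.76. Uncut larvae in 130 mM held 2.22, 2.32 and 2.62 FPKM and those in 222 mM 1.86, 3.12 and 1.59 FPKM. They were lower than regular medium (log2 change -2.30 ± 0.46, adjusted p = 0.00709, lost without replicate 1 of regular medium with adjusted p = 0.071) and -2.32 ± 0.46 (adjusted p = 0.00109), and without the 4 libraries apart by log2 changes of -2.80 and -2.66. With only the libraries compared none of the 5 differences was called (adjusted p = 0.085 to 0.297). In no comparison without uncut larvae in regular medium was cyp26a1 called, and in no pair of neighbours in the order of group means was the gap larger than the SDs. The summed liver, gut, epidermis and fin markers given above were likewise lowest in replicate 3 of that group. So were the summed muscle and blood markers, while the photoreceptor sum was not. The part of these markers in the level of cyp26a1, cyp26b1 and dhrs3a was not tested.

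**Figure D3:**
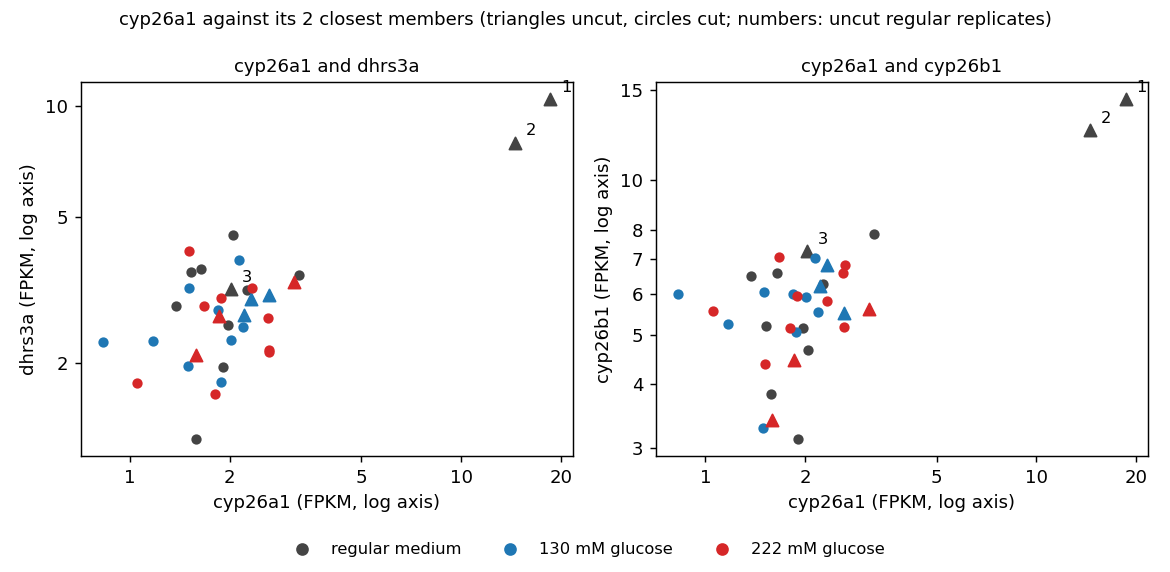
Level of cyp26a1 (FPKM, log axis) in each library against that of dhrs3a (left) and cyp26b1 (right), with uncut larvae as triangles, cut larvae as circles and the replicates of uncut larvae in regular medium numbered. Replicates 1 and 2 of that group stand at the upper right, and replicate 3 lies in the cloud of the other libraries.

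The second enzyme gene, cyp26b1 (ENSDARG00000077121, chromosome 7, 25323742 to 25348597, plus strand), was at 14.4, 12.5 and 7.26 FPKM in uncut larvae in regular medium. At 3 h after amputation it was at 4.67, 3.13 and 3.83 FPKM, below all uncut libraries, and cyp26b1 fell (log2 change -1.51 ± 0.21, adjusted p = 2.28e-05). It stood at 5.19, 6.5 and 6.58 FPKM at 24 h and 6.26, 7.85 and 5.14 FPKM at 48 h. So it was above 3 h again at 24 h (log2 change 0.65 ± 0.20, adjusted p = 0.0254) and still lower than in uncut larvae at 24 h (-0.86 ± 0.20, adjusted p = 0.00841) and 48 h (-0.84 ± 0.20, adjusted p = 0.00674). At 48 h the groups overlapped, as replicate 2 at 7.85 FPKM lay above replicate 3 of uncut larvae. The fall at 3 h was called without each single library and the log2 change was -2.0 without the 4 libraries apart. With only the libraries compared this fall was lost, as were the other calls of cyp26b1 against uncut larvae in regular medium. The fall at 24 h was lost without replicate 1 of uncut larvae (adjusted p = 0.0635) or replicate 1 at 24 h (adjusted p = 0.0561), and that at 48 h without replicate 1 of uncut larvae (adjusted p = 0.0754) or replicate 3 at 48 h (adjusted p = 0.0592). The step from 3 h to 24 h was lost without replicates 2 or 3 of either time (adjusted p = 0.0751 to 0.134). In uncut larvae cyp26b1 was lower than in regular medium, with a log2 change of -0.87 ± 0.20 in 130 mM (adjusted p = 0.0183) and, with a log2 change of -1.22 ± 0.21 in 222 mM (adjusted p = 0.000208). The first of these was made in only 1 of the 6 fits without a single library, that without replicate 3 of regular medium (adjusted p in the others 0.056 to 0.178), and the second in all 6. Without the 4 libraries apart the log2 change of cyp26b1 was -1.11 at 24 h and -1.09 at 48 h against uncut larvae, 0.89 from 3 h to 24 h, and -1.13 and -1.33 in uncut larvae in 130 mM and 222 mM. For cyp26b1 the gap between uncut larvae in regular medium and the next group, 48 h in 222 mM, was larger than the SDs.

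The third, cyp26c1 (ENSDARG00000056029, chromosome 17, 19522856 to 19535328, minus strand), had its highest and its lowest group in regular medium. It was at 4.6, 4.31 and 3.19 FPKM in uncut larvae and at 1.15, 0.56 and 0.866 FPKM at 3 h, where all 3 libraries lay below every library but 1 of the other groups, replicate 3 at 3 h in 222 mM. The fall of cyp26c1 was -2.17 ± 0.26 (adjusted p = 2.7e-06), called without each single library. With only the libraries compared this fall was lost, as were the other calls of cyp26c1 against uncut larvae in regular medium. At 24 h the level was 1.71, 1.86 and 2.28 FPKM. So cyp26c1 rose from 3 h by 1.17 ± 0.25 (adjusted p = 0.00133), again in every fit without a single library. Unlike its fall, cyp26c1 kept this call with only the libraries compared (adjusted p = 0.0333). It remained lower than in uncut larvae at 24 h (-1.0 ± 0.25, adjusted p = 0.0104, lost without replicate 1 at 24 h with adjusted p = 0.0572), and at 48 h, with 3.19, 2.27 and 2.74 FPKM, the difference was not called (-0.57 ± 0.24, adjusted p = 0.111). At 3 h cyp26c1 was higher in 130 mM than in regular medium (1.04 ± 0.25, adjusted p = 0.00978, lost without replicates 2 or 3 of regular medium with adjusted p = 0.104 and 0.0619). It was also higher in 222 mM (1.12 ± 0.25, adjusted p = 0.00182), where the log2 change was 0.73 without replicate 2 of 222 mM. In uncut larvae cyp26c1 was lower in 222 mM than in regular medium (-0.99 ± 0.25, adjusted p = 0.00726), a call made without each single library. Without the 4 libraries apart the log2 change of cyp26c1 was -2.70 at 3 h and -1.16 at 24 h against uncut larvae and 1.54 from 3 h to 24 h. It was then 1.40 and 1.49 at 3 h for 130 mM and 222 mM against regular medium, and -1.02 for 222 mM in uncut larvae. The difference at 48 h was then called (-0.73, adjusted p = 0.011).

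In 222 mM glucose cyp26c1 was not called at 3 h or 24 h (adjusted p = 0.937 and 0.915) and rose at 48 h. It was at 1.9, 2.26 and 1.44 FPKM in uncut larvae, 1.61, 2.48 and 1.09 FPKM at 3 h, 2.44, 1.79 and 1.4 FPKM at 24 h and 3.59, 2.82 and 3.43 FPKM at 48 h, where all libraries lay above the 3 other groups. The rise of cyp26c1 was 0.71 ± 0.25 against uncut larvae (adjusted p = 0.0429) and 0.79 ± 0.25 against 24 h (adjusted p = 0.0189), and at 48 h it was higher than in 130 mM by 0.86 ± 0.25 (adjusted p = 0.0157). The first of these calls was lost without replicates 1 or 3 of either group (adjusted p = 0.0875 to 0.159) and without the 4 libraries apart (0.58, adjusted p = 0.0684). The second was lost without replicates 2 or 3 at 24 h or 1 or 3 at 48 h (adjusted p = 0.0608 to 0.119) and the third without replicates 1 or 2 of 130 mM or 1 or 3 of 222 mM (adjusted p = 0.0533 to 0.0625).

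Whether the response to amputation differed between media was tested directly, with an F test of the 3 differences from uncut larvae. Between 130 mM and regular medium it differed for 5 of the 10 genes (17.9% of all tested genes), between 222 mM and regular medium for 3 (15.3%) and between 222 mM and 130 mM for 1 (24.4%). The genes were aldh1a2 (adjusted p = 0.0119), cyp26a1 (adjusted p = 0.0295), cyp26b1 (adjusted p = 0.0251), cyp26c1 (adjusted p = 0.00307) and dhrs3b (adjusted p = 0.0428) in the first test. In the second they were cyp26a1 (adjusted p = 0.0143), cyp26b1 (adjusted p = 0.00103) and cyp26c1 (adjusted p = 0.00144), and in the third rbp4l (adjusted p = 0.0313). The first 2 tests share uncut larvae in regular medium. For cyp26a1 the mean of uncut larvae was 11.7 FPKM in regular medium, 2.39 FPKM in 130 mM and 2.19 FPKM in 222 mM. After amputation its group means ran from 1.49 to 2.49 FPKM over all media. So the media differed for cyp26a1 in the uncut larvae, through replicates 1 and 2 of regular medium. The calls of aldh1a2, of cyp26c1 in both tests and of cyp26b1 in the second were made without each single library. That of cyp26a1 against 222 mM was lost without replicate 1 of uncut larvae in regular medium (adjusted p = 0.053), and that against 130 mM without replicates 1 or 2 of that group (adjusted p = 0.125 and 0.0834) or any library of uncut larvae in 130 mM (adjusted p = 0.062 to 0.0754). That of cyp26b1 in the first test was lost without replicates 1 or 2 of uncut larvae in regular medium (adjusted p = 0.111 and 0.0786) or replicates 1 or 3 of uncut larvae in 130 mM (adjusted p = 0.0508 and 0.0791). For rbp4l the call was lost without any library at 24 h in 130 mM (adjusted p = 0.0525 to 0.0699) or replicates 2 or 3 at 24 h in 222 mM (adjusted p = 0.0521 and 0.0674). All 9 were called without the 4 libraries apart, where 48.3% of all tests over all genes were called, against 19.2% with them. For dhrs3b 17 of the 24 fits without a single library lost the call.

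Carriers. The gene rbp4 (ENSDARG00000101199, chromosome 12, 5115929 to 5120339, minus strand) encodes the plasma retinol carrier, made in liver and other tissues, and with a median of 231 FPKM over the 36 libraries it was the most abundant of the 10. In regular medium it was at 291, 318 and 313 FPKM in uncut larvae, 299, 302 and 278 FPKM at 3 h, 474, 431 and 469 FPKM at 24 h and 339, 316 and 312 FPKM at 48 h. The 24 h libraries lay above all others in that medium. Thus rbp4 rose at 24 h against 3 h by 0.66 ± 0.19 (adjusted p = 0.0125) and against uncut larvae by 0.63 ± 0.19 (adjusted p = 0.029), and fell again by 48 h (log2 change -0.57 ± 0.19, adjusted p = 0.0482). The rise from 3 h was lost without replicate 3 at 3 h or replicate 1 at 24 h (adjusted p = 0.0583 and 0.0513). The rise from uncut larvae was lost without replicates 1 or 2 of uncut larvae or 1 or 3 at 24 h (adjusted p = 0.0587 to 0.115) and the fall without any of its 6 libraries (adjusted p = 0.0595 to 0.194). The rise was 0.75 from 3 h and 0.62 from uncut larvae without the 4 libraries apart.

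In 130 mM glucose rbp4 was at 236, 223 and 234 FPKM in uncut larvae, 224, 204 and 212 FPKM at 3 h, 228, 402 and 440.2 FPKM at 24 h and 199, 206 and 216 FPKM at 48 h. Replicates 2 and 3 at 24 h were above, and replicate 1, which stands apart from them, was level with the other times. The rise of rbp4 against uncut larvae was 0.66 ± 0.19 (adjusted p = 0.047), and 0.92 without the 4 libraries apart. It was called in only 1 of the 6 fits without a single library, that without replicate 1 at 24 h (adjusted p in the others 0.0991 to 0.259). The summed liver markers were 2357, 4742 and 4846 CPM in replicates 1, 2 and 3 at 24 h, against 951 to 1877 CPM in uncut larvae. At 24 h 7 of the 12 liver markers rose with a median log2 change of 1.5 (2.67% of all tested genes called). The markers were also raised at 3 h and 48 h, where rbp4 was not called. At 3 h 7 of the 12 rose (38.2% of all tested genes called), with sums of 2731 to 4793 CPM. At 48 h 3 of the 12 liver markers rose (6.14%), with sums of 3028 to 3581 CPM. The summed epidermis and fin markers were 19049, 28877 and 27825 CPM in replicates 1, 2 and 3 at 24 h and 14951 to 16860 CPM in uncut larvae. At 48 h, where rbp4 was not called against uncut larvae, they were 25999 to 27748 CPM. The part of the markers of either list in the rise of rbp4 was not tested. Against 3 h rbp4 rose by 0.73 ± 0.19 (adjusted p = 0.00503, lost without replicate 3 at 24 h with adjusted p = 0.06). By 48 h it fell (log2 change -0.69 ± 0.19, adjusted p = 0.0369), a call again made in only 1 of the 6 fits, that without replicate 1 at 24 h (adjusted p in the others 0.0934 to 0.21). The log2 change of rbp4 from 3 h was 0.98 and that to 48 h -0.94 without the 4 libraries apart.

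In 222 mM glucose rbp4 was lower than in regular medium in uncut larvae, at 24 h and at 48 h. Its level was 169, 171 and 229 FPKM in uncut larvae, 269.9, 224 and 215 FPKM at 24 h and 145, 192 and 145 FPKM at 48 h, below every library of regular medium at the same time. The difference of rbp4 from regular medium was -0.97 ± 0.19 at 24 h (adjusted p = 0.000186) and -0.98 ± 0.19 at 48 h (adjusted p = 0.000506), both called in every fit without a single library and with only the libraries compared. In uncut larvae it was -0.56 ± 0.19 (adjusted p = 0.0441), lost without replicates 1 or 2 of either group (adjusted p = 0.0777 to 0.156), and -0.76 without the 4 libraries apart. Against 130 mM at 24 h it was -0.59 ± 0.19 (adjusted p = 0.0183) and -0.85 without the 4 libraries apart, lost without replicates 2 or 3 of either group (adjusted p = 0.0632 to 0.156). Within 222 mM rbp4 fell from 24 h to 48 h (log2 change -0.58 ± 0.19, adjusted p = 0.0216, lost without replicate 1 at 24 h or replicates 1 or 3 at 48 h with adjusted p = 0.0827 to 0.101). In RNA of whole larvae, fewer cells of a type and less RNA per cell cannot be told apart.

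**Figure D4:**
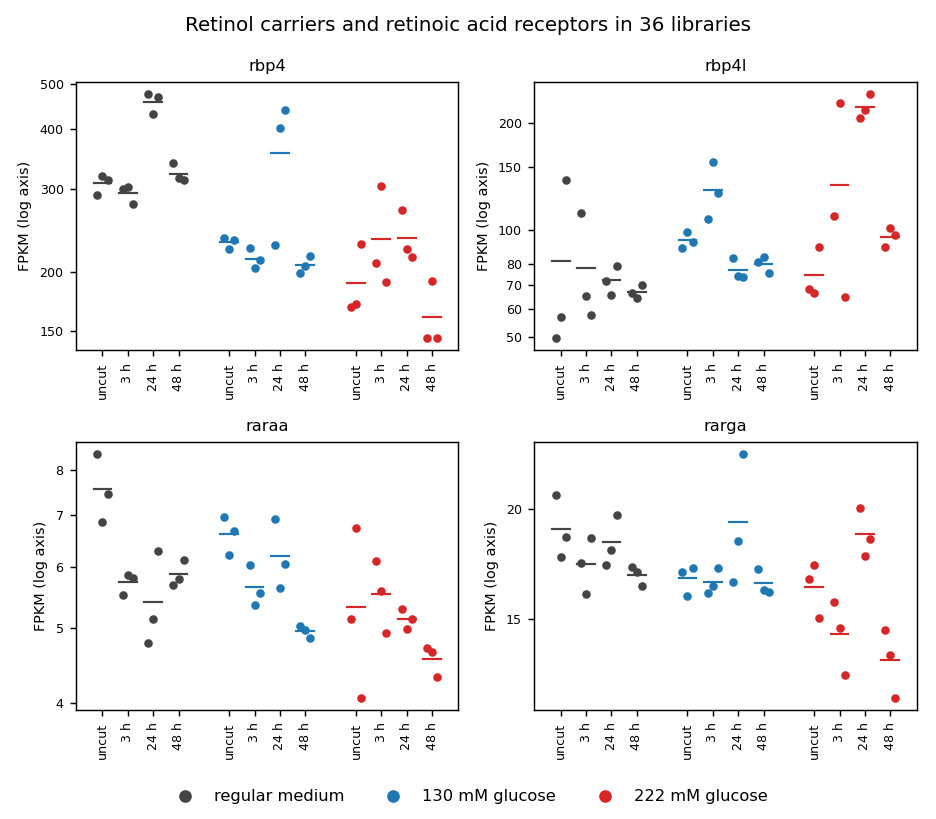
Level of the retinol carriers and retinoic acid receptors in each library (points, FPKM on a log axis) and the mean of each group (lines). The 3 libraries at 24 h in regular medium are high for rbp4, and the 3 libraries at 24 h in 222 mM are high for rbp4l.

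Between 222 mM and regular medium, the summed liver markers at 24 h ran from 2788 to 3511 CPM in regular medium and from 2739 to 3126 CPM in 222 mM, ranges that overlap. Of the 12 markers 1 was higher and 2 were lower in 222 mM (34.1% of all tested genes called). At 24 h against uncut larvae in regular medium none of the 12 liver markers was called with edgeR (9.78% of all tested genes), with a median log2 change of 0.08, and rbp4 rose. From 24 h to 48 h in regular medium, where rbp4 fell, 2 of the 12 liver markers fell (9.53% of all tested genes called), and the sum of the 12 was 1399 to 1899 CPM at 48 h. Over the 36 libraries, which share 12 groups, the correlation of log2 rbp4 with log2 of that sum was r = 0.195. The epidermis and fin markers moved with rbp4 in some comparisons and not in others. At 24 h 7 of 11 were lower in 222 mM than in regular medium (34.1% of all tested genes called). From 24 h to 48 h in regular medium 5 of 11 fell (9.53%). At 48 h, where rbp4 was lower in 222 mM than in regular medium, 1 of 11 was lower (16.5%). Their part in the level of rbp4 was not tested.

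The rbp4-like gene rbp4l (ENSDARG00000044684, chromosome 21, 20338613 to 20342096, minus strand) is annotated with retinol transport in the deposited table. It stood at 68.2, 66.7 and 89.8 FPKM in uncut larvae in 222 mM, at 109.7, 228 and 64.6 FPKM at 3 h, at 206, 217 and 240.3 FPKM at 24 h and at 89.3, 101 and 96.9 FPKM at 48 h. The 24 h group was above all uncut and 48 h libraries, while the 3 h libraries ran from below all uncut libraries to above replicates 1 and 2 at 24 h. Against uncut larvae rbp4l rose at 24 h by 1.46 ± 0.34 (adjusted p = 0.0108, lost without replicates 1 or 2 of uncut larvae with adjusted p = 0.0514 and 0.0585), and it fell from 24 h to 48 h (log2 change -1.22 ± 0.33, adjusted p = 0.00848). At 24 h rbp4l was at 72, 65.7 and 79.3 FPKM in regular medium and 83.4, 74.4 and 74 FPKM in 130 mM, far below 222 mM. The difference was 1.60 ± 0.34 from regular medium (adjusted p = 0.000641) and 1.53 ± 0.34 from 130 mM (adjusted p = 0.00159). At 24 h rbp4l was higher by 1.65 than in uncut larvae and by 1.56 than in 130 mM without the 4 libraries apart. The fall to 48 h and the 2 differences between media at 24 h were called without each single library and with only the libraries compared.

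At other times rbp4l was not called. At 3 h in 130 mM it was at 107, 156 and 127 FPKM, above all uncut libraries of that medium (88.8, 98.9 and 92.7 FPKM), with a log2 change of 0.52 ± 0.33 (adjusted p = 0.219). In uncut larvae in regular medium it was at 49.8 and 56.9 FPKM in replicates 1 and 2 and at 138 FPKM in replicate 3, and at 3 h in that medium at 111 FPKM in replicate 1 and at 65.1 and 57.5 FPKM in replicates 2 and 3. The high library of each of these groups is one of the 4 that stand apart. Without those 4, rbp4l was higher at 3 h than in regular medium by 1.17 in 130 mM (adjusted p = 0.00481) and by 1.34 in 222 mM (adjusted p = 0.00154).

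**Figure D5:**
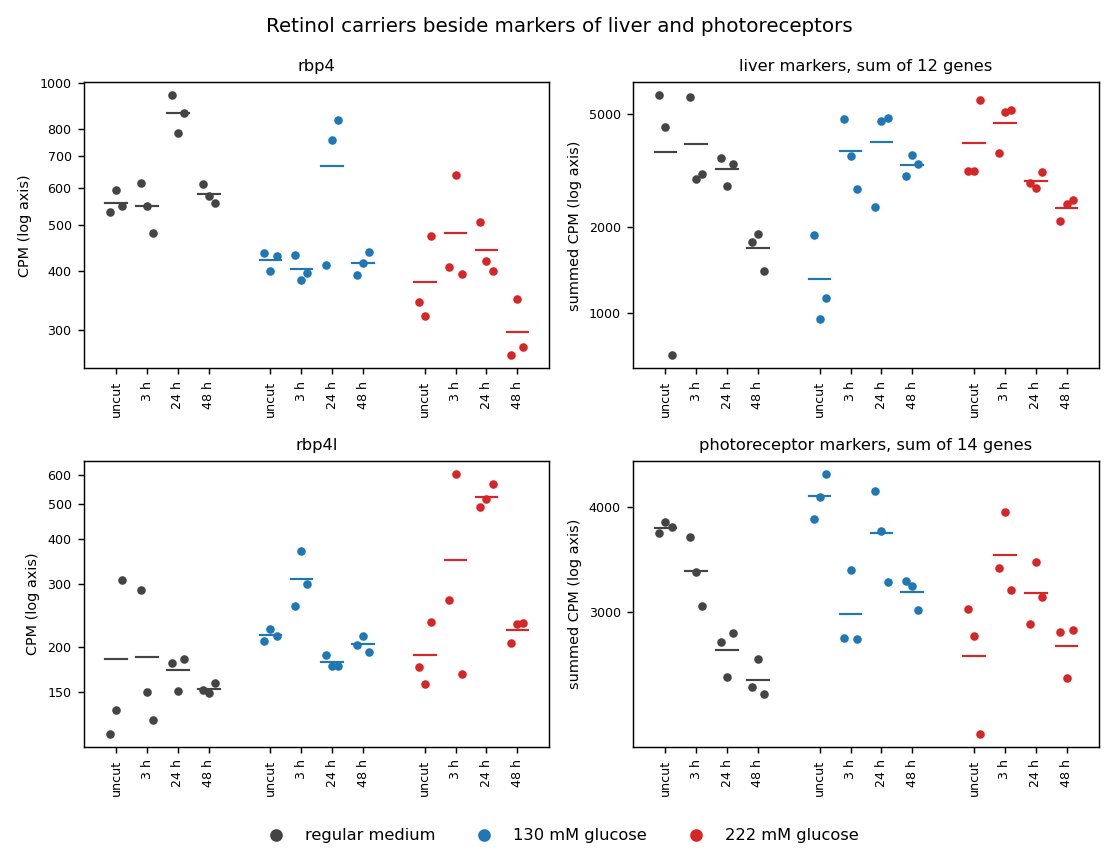
Left, rbp4 and rbp4l in each library (CPM on a log axis); right, the summed CPM of 12 liver markers and of 14 photoreceptor markers in the same libraries, with group means as lines. At 24 h in 222 mM, where rbp4l is highest, the photoreceptor sum runs from 2901 to 3438 CPM, and at 24 h in 130 mM replicate 1 is low for both rbp4 and the liver sum.

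Among the genes whose log2 CPM was most like that of rbp4l over the 36 libraries were rcvrn3 (r = 0.917) and arr3a (r = 0.865), a recoverin and an arrestin of photoreceptors. The sum of 14 photoreceptor markers, which includes arr3a, was 2901 to 3438 CPM at 24 h in 222 mM and 2505 to 2832 CPM in regular medium. Of its 14 genes 2 were higher and 5 lower in 222 mM than in regular medium at 24 h (34.1% of all tested genes called), and the correlation of rbp4l with that sum over the 36 libraries was r = 0.162. A row on the opposite strand overlaps rbp4l over 3484 bases at a mean of 0.549 FPKM, and the strand setting of the counting is not given in the sources used here.

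Receptors. The receptor genes raraa (ENSDARG00000056783, chromosome 12, 10952794 to 11156717, plus strand) and rarga (ENSDARG00000034117, chromosome 23, 35847200 to 35951653, plus strand) encode nuclear receptors that bind retinoic acid. They varied least. The highest group mean of FPKM was 1.66 times the lowest for raraa and 1.43 times for rarga, against 7.86 times for cyp26a1. In uncut larvae in regular medium raraa was at 8.38, 6.85 and 7.45 FPKM. It was at 5.51, 5.85 and 5.8 FPKM at 3 h, 4.78, 5.13 and 6.28 FPKM at 24 h and 5.68, 5.79 and 6.12 FPKM at 48 h, all below the uncut libraries. The falls of raraa were -0.36 ± 0.12 (adjusted p = 0.0387), -0.43 ± 0.12 (adjusted p = 0.021) and -0.37 ± 0.12 (adjusted p = 0.0338). Each was small and each was lost without replicate 1 of uncut larvae (adjusted p = 0.152, 0.103 and 0.197), and the calls were made in 2, 3 and 1 of the 6 fits without a single library (adjusted p in the others up to 0.197). They were -0.44, -0.47 and -0.41 without the 4 libraries apart. In uncut larvae raraa was lower in 222 mM than in regular medium (-0.38 ± 0.12, adjusted p = 0.032), which was lost without replicate 1 of regular medium, without replicates 1 or 3 of 222 mM (adjusted p = 0.0821 to 0.19) and without the 4 libraries apart (-0.28, adjusted p = 0.0926). Without replicate 3 of 222 mM the log2 change was -0.25.

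For rarga the calls lay at 48 h in 222 mM. It was at 14.5, 13.6 and 12.2 FPKM there, below all 33 other libraries but 1, replicate 3 at 3 h in 222 mM with 13 FPKM. At 24 h in 222 mM it was at 20.1, 17.7 and 18.5 FPKM, and rarga fell from there to 48 h (log2 change -0.50 ± 0.11, adjusted p = 0.00105), in every fit without a single library and with only the libraries compared. It was lower at 48 h than in uncut larvae of 222 mM (log2 change -0.39 ± 0.11, adjusted p = 0.0121, lost without replicate 1 of uncut larvae or replicate 3 at 48 h with adjusted p = 0.0539 and 0.0691) and than in 130 mM at 48 h (log2 change -0.41 ± 0.11, adjusted p = 0.0087). With limma on log2(FPKM + 0.1) neither of these was called (adjusted p = 0.0654 and 0.0535), and the first was -0.42 without the 4 libraries apart. In the order of group means neighbours overlapped throughout for rarga, and for raraa only 48 h in 130 mM and 48 h in 222 mM had a gap larger than their SDs.

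Between successive times, which do not use the uncut groups, 4 of the 10 genes were called from 3 h to 24 h in regular medium (18.5% of all tested genes) and 1 from 24 h to 48 h (9.53%). In 130 mM 1 was called at each step (24.8% and 2.87%), rbp4 in both. In 222 mM none was called from 3 h to 24 h with edgeR (7.82%), where 1 gene had an unadjusted p under 0.05, DESeq2 called 0 and limma on log2(FPKM + 0.1) called 1. Without the 4 libraries apart edgeR called 1 gene in that step, where 25.6% of all tests between successive times over all genes were called. From 24 h to 48 h in 222 mM 4 were called (24.8%). These last 4 were cyp26c1, which rose, and rbp4, rbp4l and rarga, which fell.

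Other genes of vitamin A handling were counted from a list of 58, of which 50 were tested. In regular medium 2 of 50 fell at 3 h (15.1% of all tested genes called), 2 rose and 2 fell at 24 h (9.78%), and 7 rose and 9 fell at 48 h (14.5%). Their median log2 changes were 0.03, -0.03 and -0.06, beside -0.01, -0.03 and -0.01 over all tested genes. The retinol acyltransferase gene lratb.2, which makes retinyl esters one of several lratb copies between which reads could be split, was at 3.82, 2.82 and 4.28 FPKM at 48 h in regular medium and at 7.75, 3.36 and 9.24 FPKM at 48 h in 222 mM. In 222 mM at 24 h lratb.2 was at 0.676, 1.54 and 1.06 FPKM, and it rose by 2.61 ± 0.46 to 48 h (adjusted p = 0.000134). The cellular retinaldehyde-binding protein gene rlbp1b rose over the same step by 2.24 ± 0.26 (adjusted p = 5.17e-07) and the retinol dehydrogenase gene rdh5 by 1.81 ± 0.31 (adjusted p = 0.000112), 3 of 12 rises in that step beside 7 falls (24.8% of all tested genes called). The cellular retinol-binding protein gene rbp7a was at 5.13, 3.11 and 3.08 FPKM at 3 h and 22.4, 23.1 and 24.3 FPKM at 24 h in regular medium, a rise of 2.61 ± 0.51 (adjusted p = 0.000695).

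At 24 h 4 of the 50 genes were higher and 13 lower in 222 mM than in regular medium, a share near the 34.1% of all tested genes called. Against 130 mM 3 were higher and 17 lower (24.3% of all tested genes called), with median log2 changes of -0.31 and -0.35 beside 0.01 and -0.01 over all tested genes. Among them was rbp2a, an intestinal type of cellular retinol-binding protein, with 28.7, 38.7 and 35.8 FPKM in 222 mM and 122, 112 and 107 FPKM in regular medium, a difference of -1.73 ± 0.24 (adjusted p = 4.01e-06). The gut markers moved with rbp2a: 3 of 4 were lower in 222 mM at 24 h, and their sum was 455 to 527 CPM against 1033 to 1142 CPM in regular medium. Their part in the difference was not tested. In uncut larvae 9 of the 50 were lower and none was higher in 222 mM than in regular medium (12.6% of all tested genes called). The transthyretin gene ttr, which encodes a plasma partner of Rbp4, fell from 3 h to 24 h in 222 mM (log2 change -1.70 ± 0.33, adjusted p = 0.00221). The retinol-binding gene rbp2b rose at 24 h in 130 mM by 2.39 ± 0.66 (adjusted p = 0.047, groups overlapping) and the carotenoid-cleaving oxygenase gene bco2b at 48 h in 222 mM against uncut larvae by 1.64 ± 0.47 (adjusted p = 0.0161).

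Of 33 genes known as retinoic acid targets in vertebrate embryos, 30 were tested. In regular medium 1 rose and 4 fell at 3 h (15.1% of all tested genes called), 1 rose at 24 h (9.78%) and 3 fell at 48 h (14.5%), with median log2 changes of -0.18, -0.17 and -0.18. At 3 h in 130 mM 5 rose and 11 fell (38.2% of all tested genes called), with a median of -0.43. In uncut larvae 4 were lower in 222 mM than in regular medium (12.6%), with a median of -0.14. The transglutaminase gene tgm2a was at 3.27, 2.54 and 0.905 FPKM in uncut larvae and 13, 5.5 and 7.66 FPKM at 3 h in regular medium, a rise of 2.02 ± 0.38 (adjusted p = 0.00103). The homeobox gene cdx1a was lower at 48 h than in uncut larvae of regular medium (log2 change -1.09 ± 0.17, adjusted p = 0.000102), and hoxb1b was lower in 222 mM than in regular medium in uncut larvae (log2 change -0.76 ± 0.23, adjusted p = 0.0279). The orphan nuclear receptor gene nr2f2 fell at 3 h in 130 mM (log2 change -0.76 ± 0.13, adjusted p = 9.13e-05) while nr2f1b rose by 0.80 ± 0.23 (adjusted p = 0.00731). At 48 h tgm2b was higher in 130 mM than in regular medium by 1.02 ± 0.18 (adjusted p = 0.00023) and hoxc1a lower (log2 change -1.11 ± 0.26, adjusted p = 0.00298). The pancreatic homeobox gene pdx1 was lower in 222 mM than in regular medium at 3 h (log2 change -0.94 ± 0.22, adjusted p = 0.00298).

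The patterns most like each gene over the 36 libraries, which share 12 groups, are given as a description of log2 CPM. For cyp26a1 they were dhrs3a (r = 0.72), abcg2b (r = 0.703) and cyp26b1 (r = 0.69), and over the 33 libraries without uncut larvae in regular medium cyp26a1 and dhrs3a had r = 0.299 and cyp26a1 and cyp26b1 r = 0.239. For cyp26b1 they were dhrs3a (r = 0.731), cyp26c1 (r = 0.721) and tbc1d24 (r = 0.72), and cyp26b1 and cyp26c1 had r = 0.613 over the 33 libraries. The squalene epoxidase gene sqlea was the most like aldh1a2 (r = 0.917) and itm2bb the most like rbp4 (r = 0.871). The corneal keratocan gene kera was the most like raraa (r = 0.847), lef1 the most like rarga (r = 0.766), fbxl22 the most like dhrs3b (r = 0.798), and tapbpl the most like cyp26c1 among genes with a full name (r = 0.781).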

How the data were processed

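RNA-seq of 36 libraries of whole zebrafish larvae was analysed from 1 deposited table. The deposited counts are raw whole numbers for each gene. The table also holds FPKM that the authors computed, which correct for transcript length and depth. Per the submitters' processing notes, HISAT, StringTie and edgeR were used with GRCz11; no source used here names the tool or strand setting behind the counts, so overlapping or antisense genes cannot be told apart. For 3124 genes the deposited symbol was absent or lacked what follows a point, and it was completed from an Ensembl name table.

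Genes reaching 1 FPKM in 3 or more libraries, 20120 in number, were fitted on their counts with edgeR 4.0.16 in R 4.3.3 (TMM scaling, robust quasi-likelihood fit, 1 mean per group, all 36 libraries; common biological coefficient of variation 0.203). Benjamini-Hochberg adjustment ran over the genes of 1 comparison, with calls under 0.05. A standard error was obtained as log2 fold change over the root of F. There were 9 comparisons with uncut larvae, 12 of media, 6 of successive times and 3 F tests. Correlations used log2 CPM with a prior count of 2. The procedure was tested on simulated counts. Alternatives were median-ratio scaling, no expression filter, DESeq2 1.42.0, limma 3.58.1 on log2 FPKM with 0.1 or with 1 added, the replicate number as a block, only the libraries compared, the criterion of the series text (unadjusted p under 0.05 and a log2 change beyond 1), each library left out, and the 4 libraries apart left out. For the F tests that criterion was the unadjusted p alone.

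The genes and lists were chosen with earlier results of these data known. All 10 genes are named with their values. Of the other retinoid genes and the targets, at most 8 of each were named, those called in at least 1 comparison with the largest log2 changes, and for each of the 10 genes the 3 genes of highest correlation could be named. Only for 3 h against uncut larvae in 222 mM did the same replicate numbers correlate above 0.1 in all 3 pairs (r = 0.174, 0.152 and 0.389, deviations from group means over genes). The main fit did not pair replicates there, and the replicate block was a common term over all 36 libraries. Chi-square tests of counts found more than sampling noise between the replicates of every group. At these depths the lowest count of any of the 10 genes was 90.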

Additional observations from a re-analysis of the deposited data

Results flagged for a closer look

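The F test of whether the 3 responses to amputation differed between 2 media called 9 of 30 tests of these genes, beside 19.2% of such tests over all genes, and such a difference is what brings each result here. Between 130 mM and regular medium the adjusted p was 0.0119 for aldh1a2, 0.0295 for cyp26a1, 0.0251 for cyp26b1, 0.00307 for cyp26c1 and 0.0428 for dhrs3b. Between 222 mM and regular medium the adjusted p was 0.0143 for cyp26a1, 0.00103 for cyp26b1 and 0.00144 for cyp26c1. Between 222 mM and 130 mM the adjusted p was 0.0313 for rbp4l. For cyp26a1 media were called apart only in uncut larvae, where regular medium was the higher, and at no time after amputation. For aldh1a2 the log2 change against uncut larvae was 0.71 at 3 h in 130 mM and 0.03 in regular medium, and at 48 h 0.36 in 130 mM (adjusted p = 0.263) and -0.90 in regular medium. For cyp26c1 it was -2.17 at 3 h in regular medium and -0.06 in 222 mM (adjusted p = 0.937), while at 48 h it was 0.71 in 222 mM and -0.57 in regular medium (adjusted p = 0.111).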

How the results depend on the processing

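The precision is limited by 3 libraries per group and by the unlike replicates of uncut larvae in regular medium. Calls after amputation numbered 21 of 90, between media 22 of 120, between successive times 11 of 60 and in the F tests 9 of 30. Without the 4 libraries apart these became 34, 42, 18 and 18, while the shares over all genes rose from 12.1%, 15.6%, 14.7% and 19.2% to 26.2%, 29.4%, 25.6% and 48.3%. With only the libraries compared they were 11, 20, 12 and 7, beside shares over all genes of 11.8%, 17.5%, 18.1% and 19.1%. Of these calls of the 10 genes, 4, 10, 7 and 7 were calls of the first fit. Under the criterion of the series text the calls were 10, 9, 2 and 17, the last on unadjusted p alone, since an F test of 3 differences has no single log2 change. With single libraries left out, calls after amputation ran from 12 (without replicate 1 of uncut larvae in regular medium) to 25 (without its replicate 3). Between media they ran from 18 to 32 and in the F tests from 6 to 15. These extremes came without the same libraries, but 18, 6 and 15 also came without some other single libraries. Between times they ran from 7 (without replicate 3 at 48 h in 222 mM) to 13 (without replicate 3 of uncut larvae in regular medium or replicate 2 at 3 h in 222 mM). Shares over all genes are not given here for these fits, for the criterion of the series text or for a replicate block. Those counts are a description only. Under these alternatives 1 result was called against its first direction, aldh1a2 at 3 h in regular medium, from 0.03 (not called) to -0.44 without the 4 libraries apart (adjusted p = 0.031). With median-ratio scaling, no filter, limma or DESeq2 each of the 4 counts stayed within 1.5 times. Limma on log2(FPKM + 0.1) shifted the median of all genes by up to -0.15. A replicate block in the fit of the 36 libraries gave 20, 19, 9 and 8 calls. For 3 h against uncut larvae in 222 mM, none of the 10 genes was called in the edgeR fit of the 36 libraries, with or without the block. Without the 4 libraries apart 2 were called there, beside 26.2% of tests over all genes pooled over the comparisons after amputation.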
